A study of Mus musculus with 6 samples.

Results

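The AP-1 transcription factors examined here were 9 genes taken by symbol from a deposited table of 30315 genes. They were the Fos genes Fos, Fosb, Fosl1 and Fosl2, the Jun genes Jun, Junb and Jund, and the partner genes Atf3 and Maff. RNA-Seq was performed on primary renal tubular epithelial cells (TECs) of C57BL/6 mice, that is, tubule cells taken from the kidney and cultured. All 6 libraries came from cells that received a small interfering RNA (siRNA) 12 h before hypoxia/reoxygenation (H/R), a culture model of ischemia-reperfusion injury with 6 h without glucose at 1% oxygen and 18 h of reoxygenation in complete medium. The siRNA was siSox9, against Sox9, in 3 libraries and the control siNC in the other 3, so both groups had been transfected and injured, and uninjured cells were not analysed here. The comparison asks which AP-1 transcripts change when the tubular repair factor Sox9 is lowered after H/R. The labels do not say whether the 3 libraries of a group came from separate mice or cultures, so p-values measure only the spread between these libraries, which may be technical.

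AP-1 is a dimer of basic leucine zipper (bZIP) proteins. Fos proteins cannot pair with themselves and need a Jun partner, while Jun proteins can pair with each other or with a Fos or ATF protein, so the mix of subunits sets which dimers form. These dimers bind the TPA response element TGANTCA or the related cyclic AMP response element TGACGTCA. Fos and Fosb are immediate-early genes with short-lived transcripts, Fosl1 (FRA1) and Fosl2 (FRA2) encode Fos proteins without the strong activation domain of c-Fos, Junb is a weaker activator than Jun at many sites, and Jund is usually expressed steadily. In the kidney, AP-1 genes are induced early after tubular injury.

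The ratio of Junb to Jun did not overlap between the groups, but 3 against 3 libraries cannot give an exact permutation p under 0.1. After Benjamini-Hochberg adjustment over 10 pairs, this p was 0.333. The sequences before the Jun and Junb starts are shown for this pair. They are the 250 bases before the RefSeq start in GRCm38.p6, 5′ to 3′ on the strand of the gene, with matches to the motifs searched in capitals. For Jun (chr4:95052223-95052472, minus strand) the capitals mark a GC box on the opposite strand and the element TGACATCA, a variant of the AP-1 site long known in the Jun promoter. For Junb (chr8:84978749-84978998, minus strand) no match was found.
Jun: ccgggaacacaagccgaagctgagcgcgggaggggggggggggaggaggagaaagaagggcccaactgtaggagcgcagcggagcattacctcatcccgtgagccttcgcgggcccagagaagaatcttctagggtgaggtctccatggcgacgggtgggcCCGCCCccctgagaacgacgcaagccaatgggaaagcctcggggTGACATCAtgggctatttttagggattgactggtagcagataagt
Junb: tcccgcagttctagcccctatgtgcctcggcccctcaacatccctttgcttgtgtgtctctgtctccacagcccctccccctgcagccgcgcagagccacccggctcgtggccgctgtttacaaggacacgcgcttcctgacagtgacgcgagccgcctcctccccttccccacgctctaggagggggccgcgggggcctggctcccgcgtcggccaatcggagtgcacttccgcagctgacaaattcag

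Promoter windows of 300 bases, from 250 before to 50 after a start, were given for 8 of the 9 genes, all but Fosl1. These genes had 10 windows together. Counts below are of genes with a match in any of their windows, while percentages are of single windows, so the units differ. The element TGACATCA also stood in a window of Maff, and the cyclic AMP response element TGACGTCA was found in another Maff window only; these letters occur in 3.62% and 1.79% of the 32851 windows of all genes.
Maff (chr15:79348346-79348375): ctggagccatgTGACATCAgtgtttgttcc
Maff (chr15:79347480-79347509): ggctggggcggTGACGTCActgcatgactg
Of the SOX core letters searched, AACAAT was found in 0 of the 8 genes and ACAAAG in 1, Jund, against 10.72% and 18.71% of all windows.
Jund (chr8:70697587-70697614): ttgctcaaaacACAAAGtaaaactcaac
The Jund window lies before a RefSeq start that is upstream of the gene as the deposited table gives it. TGANTCA and the CArG box were found in none of these windows, against 7.81% and 1.63% of all windows, and the GC box GGGCGG was found in 6 of the 8 genes, against 35.66%. These matches are a description of letters in a short window on both strands and say nothing of binding.

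The libraries were close in depth, with library totals of 23893197 to 25725743 reads inferred from the scaling of the FPKM values (reads scaled to exon length and to library size). Recovered reads summed over the listed genes, at 25271446 to 27211179, were above the inferred total in every library, so these totals are approximate. The cause was not tested. Sox9, the target, was at 8.61 to 9.07 FPKM with siSox9 and at 25.6 to 26.5 FPKM with siNC, so 34.2% of the control level was left (log2 fold change -1.45, standard error 0.03, adjusted p = 7.03e-06 from limma). Among the siNC libraries, replicate 1 differed more from replicates 2 and 3 (mean chi-square of reads per gene of 6.57 and 6.87, where sampling noise gives 1) than these did from each other (2.66). The siSox9 libraries differed from each other by 1.89 to 3.91. Of 15 tubular epithelium markers, Epcam, Cdh1, Cdh16, Krt8 and Krt18 had group means from 101 to 2120 FPKM, and Cdh16 was higher with siSox9 (130 against 101 FPKM, a log2 fold change of 0.36; limma, adjusted p = 0.000307), by more than any AP-1 gene changed. By contrast, Slc34a1, Umod, Slc12a1, Slc12a3 and Aqp2, which define segments of the mature tubule, had means under 0.1 FPKM over the 6 libraries. Of 8 fibroblast and pericyte markers, 7 were in the table and 2 were tested, and 0 passed. Acta2, also a marker of smooth muscle cells and myofibroblasts, was at 686 FPKM with siSox9 and 727 FPKM with siNC. Col1a1 was at 5.79 and 6.78 FPKM. The others averaged under 1 FPKM. Among them, Col3a1 (0.2 against 0.28 FPKM) and Pdgfrb (0.591 against 0.763 FPKM) were lower with siSox9 without overlap. In Col1a2, Pdgfra and Dcn, the last near 0, the groups overlapped. The summed level of 7 leukocyte markers was 104 to 114 FPKM with siSox9 and 92.6 to 99.1 FPKM with siNC. Most of this sum was Lyz2, which was higher (83.4 against 71.9 FPKM; limma, adjusted p = 0.0175). The other 3 leukocyte markers tested did not pass, so the difference in the sum is mainly that of Lyz2. The summed level of 6 endothelial markers was 3.64 to 4.0 FPKM with siSox9 and 3.97 to 5.08 FPKM with siNC, and Synpo of 4 podocyte markers was lower. The part of these cells in the results below was not tested.

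The AP-1 genes were expressed at very different levels. FPKM is scaled to gene length, so levels can be set side by side, although their order depends on the exon length used for each gene. Over the 6 libraries Junb was the highest at 131 FPKM, rank 286 of the 12009 genes that averaged 1 FPKM or more, followed by Maff at 42.7 FPKM, Jun at 30.1 FPKM and Fosl2 at 27.3 FPKM. Jund had 11.2 FPKM, Fosl1 10.6 FPKM and Atf3 8.03 FPKM. Fos and Fosb were the lowest, with 2.01 FPKM for Fos and 0.86 FPKM for Fosb. Their reads per library were similar (93 to 151 and 107 to 150), so their order rests on exon lengths of 2352 and 6243 bases. Jun was above Fosl2 in all 6 libraries, but the ranges of both genes overlapped. Jund and Fosl1 also overlapped, and their order was not the same in the groups: Jund was above Fosl1 in 3 of 3 siSox9 libraries and in 1 of 3 siNC libraries.

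**Figure D1:**
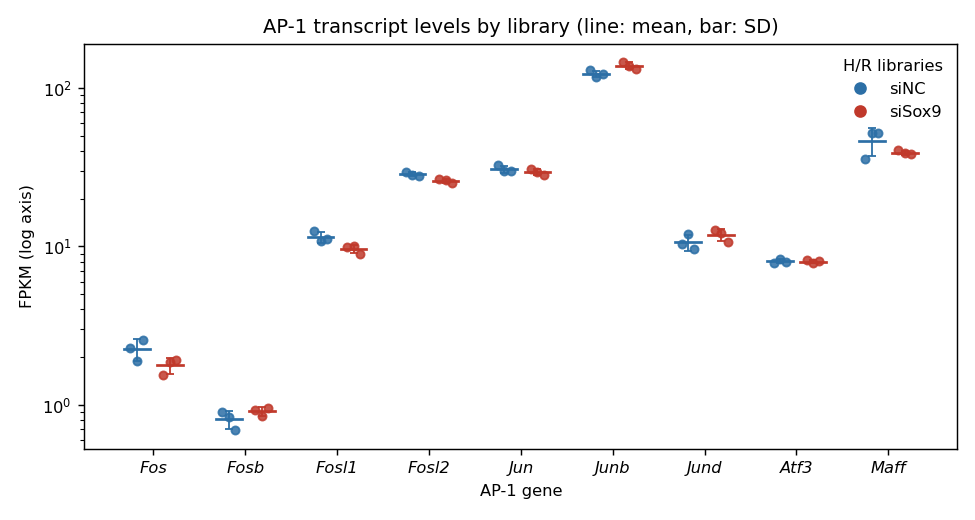
FPKM of the 9 AP-1 genes on a log axis, with 1 point for each library (blue, siNC; red, siSox9), a line at the mean of 3 libraries and a bar of 1 SD. Junb is the highest gene in every library and Fosb the lowest, while Jund and Fosl1, like Jun and Fosl2, lie close together.

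Differences between the groups were small. Of the 8 AP-1 genes tested, 2 were lower with siSox9 (Fosl1 and Fosl2) and 1 was higher (Junb) at an adjusted p under 0.05 from limma, which is 37.5% of the genes tested. Over all 12009 genes, 30.4% passed in either direction, 17.6% lower and 12.8% higher, so the share among the AP-1 genes was near that of all genes. Of all genes past the threshold, 1532 were higher and 2118 lower, but 1959 were higher and 1765 lower after median-centring of the libraries. The median log2 fold change of the 8 AP-1 genes was -0.10, against -0.01 for all genes, and the largest change of any of the 8 was 0.23 in size, which 21.4% of all genes exceeded. In 3 of the 8 genes there was no overlap between siSox9 and siNC libraries, or 37.5%, against 46.3% of all genes tested. An exact two-sided permutation test of 3 against 3 libraries cannot give a p under 0.1, and it gave 0.1 for each of these 3 genes. In bulk RNA, fewer cells of a type and less RNA per cell cannot be told apart.

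**Figure D2:**
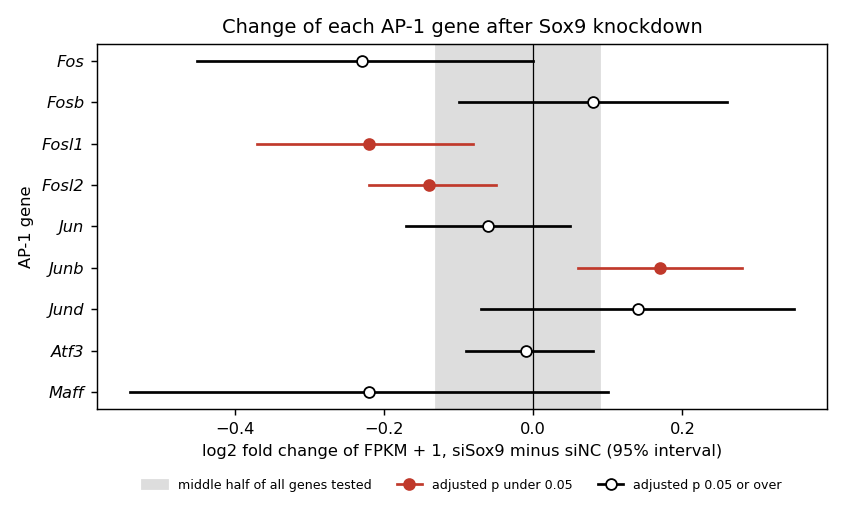
Log2 fold change of FPKM + 1 of each AP-1 gene, siSox9 minus siNC, with its 95% interval from limma; red marks an adjusted p under 0.05 and the grey band the range from -0.13 to 0.09 that holds the middle of all genes tested, from the lower to the upper quartile. Fosl1 and Fosl2 lie to the left of 0 and Junb to the right, and the intervals of the other 6 genes reach or cross 0 (Fosb from a fit without a minimum level).

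Both Fra genes were lower with siSox9. Fosl1 (ENSMUSG00000024912, chromosome 19 from 5447703 to 5455945 in GRCm38) had 9.91, 10.1 and 9.02 FPKM with siSox9 and 12.5, 10.8 and 11.1 FPKM with siNC, from 368 to 437 and 447 to 528 reads. All siSox9 libraries were below all siNC libraries, and 84.3% of the control level was left. Limma gave a log2 difference of -0.22 ± 0.06 (SE; adjusted p = 0.0307). FRA1 is the Fos protein most often tied to migration and invasion of epithelial cells. The call was not stable: the adjusted p from limma was 0.0522 to 0.0847 when siSox9 replicate 1, 2 or 3 or siNC replicate 1 or 3 was left out, 0.125 when each library was rescaled to the same sum, and 0.0178 to 0.125 over all 14 alternatives, with a log2 fold change from -0.26 to -0.17. In GENCODE M21 the gene Ccdc85b on the opposite strand shares 57.2% of the Fosl1 exon bases, and whether reads were counted by strand is not given in the sources used here. Ccdc85b itself was at 43.9 ± 1.20 FPKM with siSox9 and 44.1 ± 1.38 FPKM with siNC (SD, n = 3).

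Fosl2 (ENSMUSG00000029135, chromosome 5 from 32135801 to 32157842) had 26.7, 26.1 and 25 FPKM with siSox9 and 29.5, 28.3 and 28.0 FPKM with siNC. The groups did not overlap, although the highest siSox9 and the lowest siNC library were close, and 90.6% of the control level was left. It was among the more deeply read AP-1 genes, with 5775 to 7094 reads, and limma gave a log2 difference of -0.14 ± 0.04 (SE; adjusted p = 0.0283). The adjusted p from limma was 0.0537 to 0.0773 without siSox9 replicate 2 or 3 or any 1 of the 3 siNC libraries, and 0.00785 to 0.243 over all 14 alternatives, the highest when libraries were rescaled to the same sum. Fosl2 was the main Fos transcript of these cells.

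Fos and Fosb did not pass the test. Fos (ENSMUSG00000021250, chromosome 12 from 85473890 to 85477273) had 1.54, 1.86 and 1.92 FPKM with siSox9 and 2.28, 1.88 and 2.58 FPKM with siNC, which rested on only 93 to 111 and 107 to 151 reads. The groups overlapped at siNC replicate 2, which lay between the siSox9 libraries. The log2 fold change was -0.23 with a 95% interval from -0.45 to 0.00 (limma, adjusted p = 0.12), and -0.34 when the recovered reads were tested with limma voom (adjusted p = 0.0943), so a fall of this size was not separated from the spread at this depth. Over the alternatives the adjusted p was 0.0514 to 0.307. Fosb (ENSMUSG00000003545, chromosome 7 from 19302696 to 19310051) had 0.934, 0.845 and 0.952 FPKM with siSox9 and 0.897, 0.842 and 0.69 FPKM with siNC, or 107 to 150 reads. It was under the minimum of 1 FPKM, and in a fit without that minimum, in which 9.6% of 28122 genes passed, its log2 fold change was 0.08 with an interval from -0.10 to 0.26 (limma, adjusted p = 0.592).

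Junb was the AP-1 gene that rose. It (ENSMUSG00000052837, chromosome 8 from 84974484 to 84978718) had 145, 138 and 132 FPKM with siSox9 and 129, 117 and 122 FPKM with siNC, from 6525 to 8563 reads. Every siSox9 library was above every siNC library, by a narrow gap between siSox9 replicate 3 and siNC replicate 1, and the mean was 113% of the control. Limma gave a log2 difference of 0.17 ± 0.05 (SE; adjusted p = 0.0315). The adjusted p from limma was 0.0888 to 0.0988 without siSox9 replicate 1 or 2 or siNC replicate 2 or 3, and 0.00568 to 0.0988 over all 14 alternatives. Prdx2, a peroxiredoxin gene on the opposite strand that shares 7.5% of the Junb exon bases, was also higher, with 76.1 ± 2.81 FPKM with siSox9 and 69.5 ± 1.82 FPKM with siNC (SD, n = 3, adjusted p = 0.0365 from limma).

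Jun and Jund did not pass. Jun (ENSMUSG00000052684, chromosome 4 from 95049034 to 95052222) had 31.0, 29.3 and 28.2 FPKM with siSox9 and 32.5, 29.8 and 30 FPKM with siNC. The groups overlapped, and the log2 fold change was -0.06 with a 95% interval from -0.17 to 0.05 (limma, adjusted p = 0.394). Jund (ENSMUSG00000071076, chromosome 8 from 70698949 to 70700616) had 12.6, 12.2 and 10.6 FPKM with siSox9 and 10.3, 12.0 and 9.6 FPKM with siNC, a log2 fold change of 0.14 with an interval from -0.07 to 0.35 (limma, adjusted p = 0.285). In Jund, siNC replicate 2 stood within the siSox9 range. With 1 library left out, the log2 fold change of Jund ran from 0.07 without siNC replicate 3 to 0.22 without siNC replicate 2 (limma, adjusted p = 0.608 and 0.0816), and it was 0.09 without siSox9 replicate 1. An antisense gene shares 52.6% of the Jund exon bases, so its level is less certain.

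Atf3, a stress-induced ATF protein that pairs with Jun proteins, did not pass the test. It (ENSMUSG00000026628, chromosome 1 from 191170296 to 191218039) had 8.16, 7.82 and 8.04 FPKM with siSox9 and 7.85, 8.32 and 7.98 FPKM with siNC, a log2 fold change of -0.01 with a 95% interval from -0.09 to 0.08 (limma, adjusted p = 0.911). The sign of the difference turned to 0.02 under 3 other scalings of the libraries.

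Maff, a small Maf protein without an activation domain, depended on 1 library. It (ENSMUSG00000042622, chromosome 15 from 79347541 to 79359072) had 40.3, 38.6 and 38.2 FPKM with siSox9 and 35.5, 51.7 and 52.0 FPKM with siNC. The value of siNC replicate 1 was below all siSox9 libraries and those of siNC replicates 2 and 3 were above them, on 1866 to 2737 reads. With all 6 libraries the log2 fold change was -0.22 with an interval from -0.54 to 0.10 (limma, adjusted p = 0.258). Without siNC replicate 1 it was -0.40 (adjusted p = 0.00065), without siNC replicate 2 it was -0.14 (adjusted p = 0.536), and without siNC replicate 3 it was -0.13 (adjusted p = 0.549). The adjusted p of the 14 alternatives ran from 0.00065 to 0.549, and only the one without siNC replicate 1 passed.

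The balance between AP-1 genes was then compared within each library, since a ratio of 2 genes does not depend on how libraries are scaled. The clearest pairs were Junb to Jun and Fosl2 to Junb. The log2 ratio of Junb to Jun was 2.22, 2.24 and 2.23 in the siSox9 libraries and 1.99, 1.98 and 2.02 in the siNC libraries, so the spread within a group was a small part of the difference of 0.24. The log2 ratio of Fosl2 to Junb was -2.44, -2.41 and -2.40 with siSox9 and -2.13, -2.05 and -2.12 with siNC, a difference of -0.32. The log2 ratio of Fosl1 to Jun was -1.65, -1.54 and -1.64 with siSox9 and -1.38, -1.46 and -1.43 with siNC, a difference of -0.18. The groups did not overlap in these 3 of the 10 pairs compared, each with p = 0.1 in an exact two-sided permutation test, the smallest that 3 against 3 can give, and 0.333 after Benjamini-Hochberg adjustment over the 10 pairs. With any 1 library left out, the differences were 0.23 to 0.25, -0.33 to -0.29 and -0.22 to -0.16. Among single genes, 46.3% did not overlap between the groups. In the other 7 of the 10 pairs the groups overlapped. Among these were Fosl1 to Fosl2, which differed by -0.10 (exact permutation p = 0.2), and Jund to Junb, which differed by -0.02 (exact permutation p = 1).

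**Figure D3:**
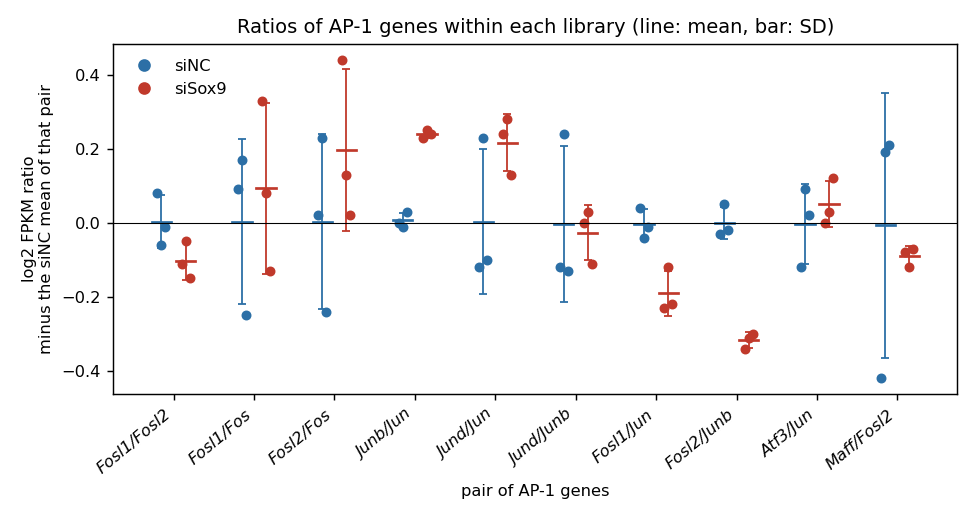
Log2 FPKM ratio of 10 pairs of AP-1 genes in each library, minus the siNC mean of that pair (blue, siNC; red, siSox9; line, mean; bar, 1 SD; n = 3). The red and blue points of Junb/Jun, Fosl1/Jun and Fosl2/Junb do not overlap, and Maff/Fosl2 shows siNC replicate 1 far below the other two siNC libraries.

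The transcripts of each family were then summed. The 4 Fos genes together had 39.0, 38.9 and 36.9 FPKM with siSox9 and 45.1, 41.8 and 42.4 FPKM with siNC, so the groups did not overlap. The 3 Jun genes together had 188, 180 and 171 FPKM with siSox9 and 172, 159 and 161 FPKM with siNC, where siSox9 replicate 3 was just below siNC replicate 1. The ratio of summed Fos to summed Jun FPKM was 0.207, 0.216 and 0.216 with siSox9 and 0.263 in each of the 3 siNC libraries. Since Fosl2, Fosl1 and Junb make up most of these sums, the values describe the same changes as the single genes and no test was made.

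Within the families the order of the members did not change. Fosl2 was 67.7 ± 0.590% of the Fos family FPKM with siSox9 and 66.3 ± 1.12% with siNC (SD, n = 3), and Fosl1 was 25.3 ± 0.736% and 26.6 ± 0.893%. Fos was 4.64 ± 0.649% and 5.21 ± 0.807%, and Fosb was 2.38 ± 0.204% and 1.88 ± 0.216%. Junb was 77.0 ± 0.246% of the Jun family FPKM with siSox9 and 74.7 ± 0.914% with siNC, Jun was 16.4 ± 0.122% and 18.8 ± 0.159%, and Jund was 6.55 ± 0.311% and 6.5 ± 0.919%. The share of Jun was lower, and the shares of Junb and Fosb were higher, in every siSox9 library than in any siNC library, and the groups overlapped in the other 4 shares. Among single genes, 46.3% did not overlap. Shares within a family are tied, so the lower share of Jun and the higher share of Junb are not separate results. The share of Fosb rests on 107 to 150 reads, and no test of shares was made.

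**Figure D4:**
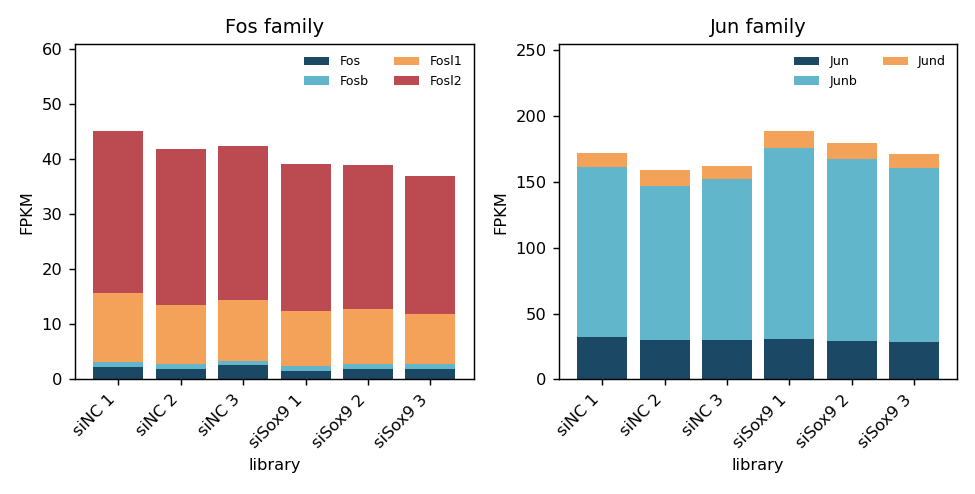
Summed FPKM of the Fos family (left) and of the Jun family (right) in each library, with the part of each gene as a coloured segment. The Fos bars of siSox9 (36.9 to 39.0 FPKM) are below those of siNC (41.8 to 45.1 FPKM), and most of each Jun bar is Junb.

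Of 22 other AP-1 and bZIP partner genes, 17 were tested, with 4 higher in the siSox9 libraries, 1 lower and 12 not past the threshold. This is 29.4% past it, against 30.4% of all genes, and the median log2 fold change was 0.01. The higher genes were the cap'n'collar factors Nfe2l1 and Nfe2l2 (NRF2), the small Maf gene Mafk, which pairs with them, and Ddit3 (CHOP). Nfe2l1 had 82.4 ± 4.5 FPKM with siSox9 and 64.3 ± 2.70 FPKM with siNC (SD, n = 3), a log2 fold change of 0.35 (limma, adjusted p = 0.00234). Nfe2l2 and Mafk each had a log2 fold change of 0.33 (limma, adjusted p = 0.00183 and 0.00381). Ddit3 was just under the threshold at 0.12 on the log2 scale, and its call was lost under 10 of the 14 alternatives (limma, adjusted p from 0.0245 to 0.144). The lower gene was Jdp2, a repressor that pairs with Jun proteins, at -0.14 on the log2 scale (limma, adjusted p = 0.038), and its call was also lost under 10 of the 14 (adjusted p from 0.0311 to 0.26). Atf2, at -0.02, and Atf7, at 0.03, which pair with Jun at the cyclic AMP response element, did not pass, and Batf, Batf2 and Batf3 were under 1 FPKM.

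Most of the kinases and factors that act on AP-1 genes and proteins did not pass. Of 29, 26 were tested, and 1 was higher, 4 were lower and 21 did not pass. This is 19.2% past the threshold, against 30.4% of all genes, and the median log2 fold change was 0.01. The MAP kinase genes Mapk3, Mapk8, Mapk9 and Mapk14 had log2 fold changes from -0.03 to 0.02 and did not pass. Rps6ka3 (RSK2), a kinase that phosphorylates c-Fos, fell from 12.2 ± 0.284 FPKM with siNC to 7.67 ± 0.182 FPKM with siSox9 (SD, n = 3), a log2 fold change of -0.61 (limma, adjusted p = 8.96e-05). Map3k5 (ASK1), which acts above JNK and p38, fell by 0.33 on the log2 scale (limma, adjusted p = 0.0158). Srf, the serum response factor that drives Fos, fell by 0.16 (adjusted p = 0.038) and Mkl2, a coactivator of Srf also known as Mrtfb, fell by 0.21 (adjusted p = 0.00295), both from limma. Map2k7, a JNK kinase, was higher by 0.21 (limma, adjusted p = 0.0444), while Map2k4, another JNK kinase, did not pass at 0.07 (limma, adjusted p = 0.0956). The calls of Srf, Map2k7 and Map3k5 were lost under 8 of 14, 6 of 14 and 4 of 13 alternatives.

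Textbook targets of AP-1 changed in both directions. Of 34, 32 were in the table and 26 were tested, of which 12 were higher with siSox9, 4 were lower and 10 did not pass, or 61.5% past the threshold against 30.4% of all genes. The median log2 fold change was 0.14. The list was chosen with earlier results of these data known, so its share is a description and not a test of AP-1 targets. Among all genes with a minimum of 5 FPKM, 2704 of 7495 passed. The largest rises were in the chemokine gene Cxcl1, with 2.13 ± 0.130 FPKM with siSox9 and 1.26 ± 0.106 FPKM with siNC, in Ptgs2 (cyclooxygenase-2), with 66.5 ± 3.57 and 49.4 ± 1.84 FPKM, and in the EGF receptor ligand Hbegf, with 183 ± 1.36 and 143 ± 5.74 FPKM (SD, n = 3), at log2 fold changes of 0.47, 0.42 and 0.35. The largest falls were in the connexin gene Gja1 (-0.90), the integrin gene Itga5 (-0.70) and the cytokine gene Il11 (-0.53), and Vim was the other lower gene (-0.22). The adjusted p of the 6 genes with the largest changes was between 5.94e-05 and 0.00224 from limma. Among those that did not pass were Plau (-0.01), Mmp9 (0.12), Ccnd1 (-0.09) and Mmp13 (0.08). Many of these genes also answer to other factors, and the part of AP-1 was not tested.

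Other immediate-early genes changed in both directions. Of 28, 23 were tested, of which 5 were higher, 5 lower and 13 did not pass. This is 43.5% past the threshold, against 30.4% of all genes, and the median log2 fold change was 0.06. This list too was chosen with earlier results of these data known. The higher genes were Egr1 (0.92), the antiproliferative gene Btg2 (0.77), Zfp36l1, which encodes an mRNA decay factor (0.39), Gadd45b (0.31) and Ier3 (0.25). The lower genes were Dusp1, a MAP kinase phosphatase (-0.37), Arc (-0.34), Ier5 (-0.34), Klf4 (-0.32) and Rhob (-0.29), of which Klf4 lost its call under 5 of 13 alternatives. All of these values are log2 fold changes of FPKM + 1. Btg2 had 114 ± 3.15 FPKM with siSox9 and 66.7 ± 1.06 FPKM with siNC (SD, n = 3, adjusted p = 4.82e-05 from limma). Ier2 (0.07), Klf6 (0.07), Myc (0.08), Zfp36 (0.06) and Nr4a1 (-0.13) did not pass.

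**Figure D5:**
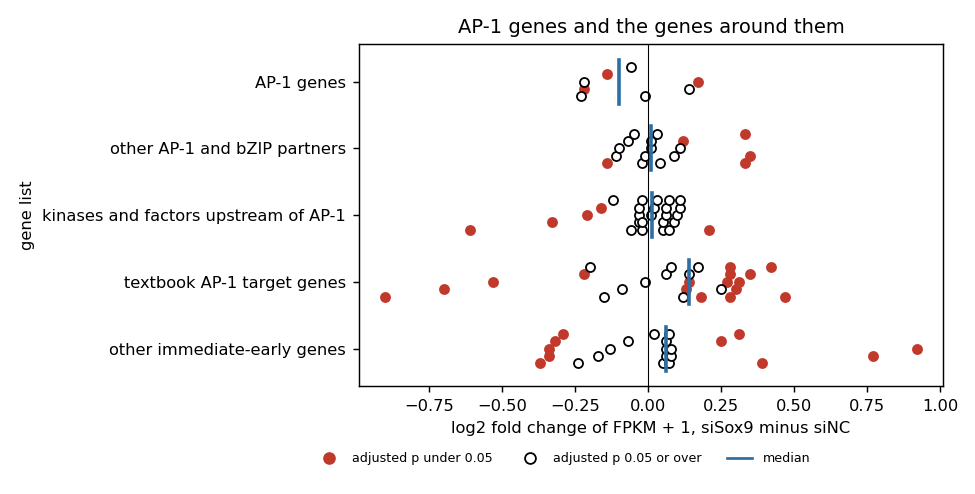
Log2 fold change of FPKM + 1, siSox9 minus siNC, for each tested AP-1 gene and for the tested genes of 4 related lists; filled red points have an adjusted p under 0.05 from limma, open points do not, and the blue line is the median of the list. The AP-1 genes lie between -0.23 and 0.17 and the bZIP partners between -0.14 and 0.35. The upstream genes run from -0.61 to 0.21, the target genes from -0.90 to 0.47 and the other immediate-early genes from -0.37 to 0.92. These 4 lists hold more genes than the AP-1 genes, which widens a range.

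For Junb and Fosl1, the genes with the most similar profile were looked up among the 12009 genes by Pearson's r of log2(FPKM + 1) over the 6 libraries. For Junb these were Ddx54 (r = 0.996), Prdm2 (0.995) and Qpctl (0.995), and for Fosl1 Cdk13 (0.998), Zswim6 (0.997) and Rbm10 (0.994). The difference between the groups is part of each r, and 264 genes for Junb and 229 for Fosl1 had r over 0.95, so these names are a description only.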

How the data were processed

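RNA-Seq of 6 libraries, 3 siSox9 and 3 siNC after H/R, was analysed from 1 table of FPKM values that the authors deposited, with 1 column per library. The submitters' processing notes name HISAT2 2.1.0, Bowtie2 2.2.3, TopHat2 and the build mm9, with no role; the counter is not given in the sources used here. Positions in the table were those of GENCODE M21 in GRCm38 for 93.3% of 30246 shared genes. Column names of the siSox9 libraries mark a non-control siRNA without spelling out Sox9.

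Whole reads were recovered from FPKM with GENCODE M21 exon lengths (93.4% of values whole within 0.02 reads; for Fosl1 and Maff, the shortest length that gave whole reads). The test between groups was limma-trend (limma 3.58.1, R 4.3.3) applied to log2(FPKM + 1) of the 12009 genes that averaged 1 FPKM or more, with Benjamini-Hochberg adjustment, no replicate block and an adjusted p threshold of 0.05. Such fold changes understate the change of low genes. Ratios within a library were compared by exact permutation. Other steps ran in Python 3.11.15 with scipy 1.17.1. The limma step was checked on simulated data, in which changes as small as those of the AP-1 genes were not included.

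Alternatives were a pseudocount of 0.1, no minimum, a minimum of 5 FPKM, rescaling to the same sum (TPM), median-centring, quantile normalization, the replicate block, limma voom on the recovered reads, and leaving out each library. The AP-1 genes and all lists were chosen with earlier results of these data known. Genes named were the 9 members, Sox9 and, from each related list, up to 3 largest rises and falls past the threshold; others, and the motif TGACATCA, were added after values were seen. Sequences and promoter windows are from RefSeq, GRCm38.p6.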

Additional observations from a re-analysis of the deposited data

How the results depend on the processing

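Sox9, Fos, Jun and Jund kept their direction and their side of the threshold under every alternative run, while the calls of Fosl1, Fosl2 and Junb did not; the cause was not tested, except that the fit without a minimum adjusts over more genes. Without a minimum, 0 AP-1 genes were higher and 0 lower (Fosl1 -0.22, Fosl2 -0.14, Junb 0.17), 0 upstream genes were higher, and 6224 of all genes had an unadjusted p under 0.05 in limma. With TPM, 0 AP-1 genes were higher and 0 lower (Fosl1 -0.20, Fosl2 -0.11, Junb 0.20), 0 bZIP partners were lower, 0 upstream genes were higher, and 1342 of all genes were lower. With median-centred values, 1 AP-1 gene was lower (Fosl1), since Fosl2 missed the threshold (-0.11, adjusted p = 0.0501 from limma), 0 bZIP partners were lower and 3 upstream genes were higher. With quantile normalization, 0 AP-1 genes were higher (Junb 0.16) and 3 upstream genes were higher. With a minimum of 5 FPKM, 1376 of all genes were lower. Atf3 turned to 0.02 under TPM, median-centring and quantile normalization. By limma voom on the reads, the same 3 AP-1 genes passed, and 4242 of all genes did. Fosb was under the minimum and was fitted only without it.

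With 1 library left out, 0 to 1 AP-1 genes were higher and 0 to 1 lower. For bZIP partners 0 to 1 were lower, for upstream genes 0 to 3 were higher and 2 to 4 lower, and for all genes 944 to 1565 were higher and 1480 to 2089 lower. The log2 fold changes ran from -0.26 to -0.17 for Fosl1, -0.16 to -0.11 for Fosl2, 0.14 to 0.21 for Junb, -0.02 to 0.01 for Atf3, -0.40 to -0.13 for Maff, -0.31 to -0.15 for Fos, -0.10 to -0.02 for Jun and 0.07 to 0.22 for Jund. The difference in log2 ratio ran from -0.04 to 0.20 for Fosl1/Fos, -0.09 to 0.10 for Jund/Junb and -0.29 to 0.02 for Maff/Fosl2, each of which changed sign.

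With the replicate block, 3262 of all genes passed against 3650 without it, the same 3 AP-1 genes passed, and 0 bZIP partners were lower. Same-numbered libraries did not deviate together (correlations of 0.065, -0.05 and 0.008 over genes), and not every library correlated best with its own number. The labels do not say whether same-numbered libraries were paired, and correlations from 3 libraries per group cannot decide it. Depth limits Fos and Fosb most, at 93 to 151 and 107 to 150 reads per library.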
